A study of Homo sapiens with 6 samples.

Results

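The genes that build, check and take apart the mitotic spindle and that cut the dividing cell apart were examined in Hep G2 cells after transfection with *miR-195* or *miR-497*. The set holds 46 genes, listed by symbol for their known roles in mitosis and cytokinesis, with no measured value in the rule, out of 21863 gene symbols with deposited values. Earlier results of these data were known when the genes were chosen. All 46 were found and were above 0 in all 6 libraries, KIF23 and PLK1 among them. Hep G2 is an established human cell line derived from a liver tumor. Transfected cells received 5 nM of a double-stranded mimic of either miRNA and are labelled 24 hours, and the comparison cells were not transfected and are labelled 0 hours. From each of the 3 conditions 1 Ago2-IP library and 1 total RNA library were sequenced. No group here received a control dsRNA, so mimic, transfection and time cannot be told apart in any comparison with them. Each group holds 1 library, so no difference has a replicate check and no test between conditions was possible. Both mimics were compared with the same non-transfected libraries.

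Mitosis begins when kinases such as PLK1 and the Aurora kinases drive the chromosomes to condense and the spindle to form. The kinetochore ties each chromosome to spindle fibers, and the spindle checkpoint holds back the anaphase-promoting complex until all chromosomes are attached. Motor proteins and the central spindle then pull the chromosomes apart and place the contractile ring that divides the cell. Many of these genes are transcribed mainly late in the cell cycle, so that their transcripts are abundant in growing cells and scarce in resting ones. *miR-195* and *miR-497* belong to one miRNA family, whose members share a seed and pair with the same short sequence in 3′UTRs.

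The mature miRNAs are shown because their common seed sets which transcripts could pair with both. Bases 2 to 8, the seed, are in capitals (RefSeq).
*miR-195*: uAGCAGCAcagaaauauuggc
*miR-497*: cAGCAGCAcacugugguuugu
The target sequence TGCTGCT, which pairs with this seed, was searched in every annotated 3′UTR of protein-coding transcripts (GENCODE 44 lifted to GRCh37, which is hg19). It was found in 6 of the 46 members (13.04%), compared with 25.3% of the 18206 symbols with a 3′UTR and 27.7% of the 13253 that were also above 0 in all 3 total RNA libraries. Sites of these 6 members are given here on the transcript strand with the target sequence in capitals, each read identically from the genome sequence.
KIF23, chr15:69740564-69740591, plus strand: ttttataaacaaaTGCTGCTatttatta
BUB3, chr10:124926176-124926203, plus strand: tcataaggaggtgTGCTGCTtcccaagc
BIRC5, chr17:76219820-76219847, plus strand: cctgtgcagcgggTGCTGCTggtaacag
INCENP, chr11:61920142-61920169, plus strand: caggctccacccgTGCTGCTcaggtgca
RACGAP1, chr12:50383358-50383385, minus strand: tttatctctgatgTGCTGCTggctgaac
RACGAP1, chr12:50383713-50383740, minus strand: gcttaaagccaaaTGCTGCTcatagaat
NCAPH, chr2:97041588-97041615, plus strand: gggaaaagagaacTGCTGCTccctgtta
KIF23 was the member whose site is followed by A, which lengthens the match to TGCTGCTA, and 5.14% of all symbols with a 3′UTR hold such a site. The site of KIF23 begins 431 bases after the stop codon in a 3′UTR of 618 bases and lies in 5 of its 6 coding transcripts. The site of BUB3 lies 2838 bases after the stop codon in 1 of its 3 coding transcripts. The read numbers of BUB3 gave an implied length of 2760 bases, shorter than its canonical transcript of 7703 bases, and whether the bases around the site were counted is not known. The site of NCAPH lies 2512 bases after the stop codon in 1 of its 4 coding transcripts. Its implied length was 4488 bases beside 6030 for the canonical transcript, so for NCAPH this is not known either. The shorter word GCTGCT was present in 12 members (26.1%), compared with 45.9% of all symbols. The 3′UTRs of the members were shorter, with a median of 772.5 bases against 1075 bases for expressed genes.

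The deposited values are RPKM, read numbers divided by gene length and by the mapped reads of the library. Whole read numbers could be inferred from them for 39 members and for 11629 of 15487 genes in all, and summed over genes to between 15974332 and 19952064 in the total RNA libraries and between 1639528 and 3321170 in Ago2-IP. The members had a median of 1555 to 2320 reads in the total RNA libraries and of 108 to 307 reads in the Ago2-IP libraries. Where 3 values follow each other, they stand for the non-transfected library, *miR-195* and *miR-497*, in that order. Counting intervals of 95% rest on these reads, assume that reads are independent and hold no variation between cultures. The cells carried hepatic transcripts, with AFP between 4295 and 4884 RPKM in total RNA, the highest of 10 hepatocyte markers. At or above 10 RPKM in total RNA there were 8, 8 and 9 of these markers, while TTR was at 1.525, 4.81 and 2.68 RPKM. Of 10 markers of other cell types, CD68 reached 13.8 RPKM and the other 9 stayed under 1 RPKM in every library.

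In total RNA the members were lower with both mimics, and more so with *miR-195*. Summed over the 46 genes, the levels were 1796, 1055 and 1263 RPKM. The highest member was TOP2A in all 3 total RNA libraries and the lowest was CIT. RPKM is a value per length, but the gene models are not given, so levels of different genes compare only as far as the lengths used are right. With *miR-195*, 40 of the 46 members were lower by at least 1.5-fold, where 8.62% of 14740 features were, and 0 were higher, where 13.3% of features were. The median log2 change of the members was -0.88, beside 0.02 for all features, and 45 of 46 lay below 0, where 7114 of 14740 features did. With *miR-497*, 21 members were lower by at least 1.5-fold, where 5.53% of 14768 features were, and 1 was higher, where 19.1% were. The median was -0.56 beside 0.09 for all features, and 44 of 46 lay below 0, where 6319 of 14768 features did. By counting error alone, the interval lay wholly below 0 for 38 of the 39 members with reads with *miR-195*, where 27.9% of 11160 features did, and for 35 with *miR-497*, where 25.9% of 11165 did. Intervals narrow as reads rise, and the members' median without transfection was 32.7 RPKM beside 5.515 for features above 0. These shares therefore compare genes of unlike depth.

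**Figure D1:**
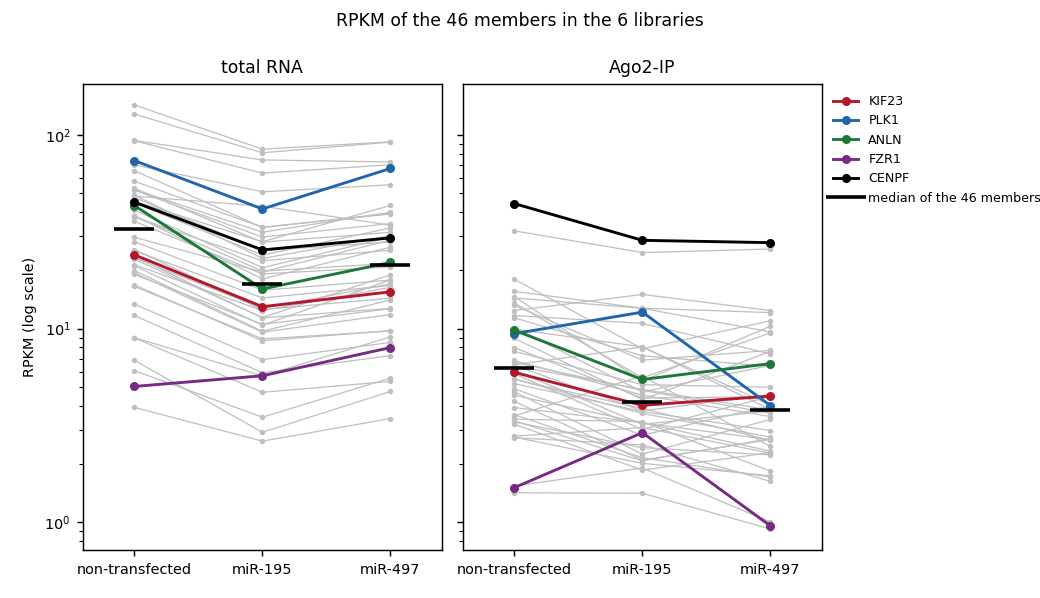
RPKM (log scale) of each of the 46 members in total RNA (left) and Ago2-IP (right) for the 3 conditions, 1 library each; grey lines are single members, 5 named members are colored and black bars are medians over the members. The median in total RNA went from 32.7 RPKM to 17.0 after *miR-195* and 21.3 after *miR-497*, while FZR1 was at 5.03, 5.71 and 7.99 RPKM.

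**Figure D2:**
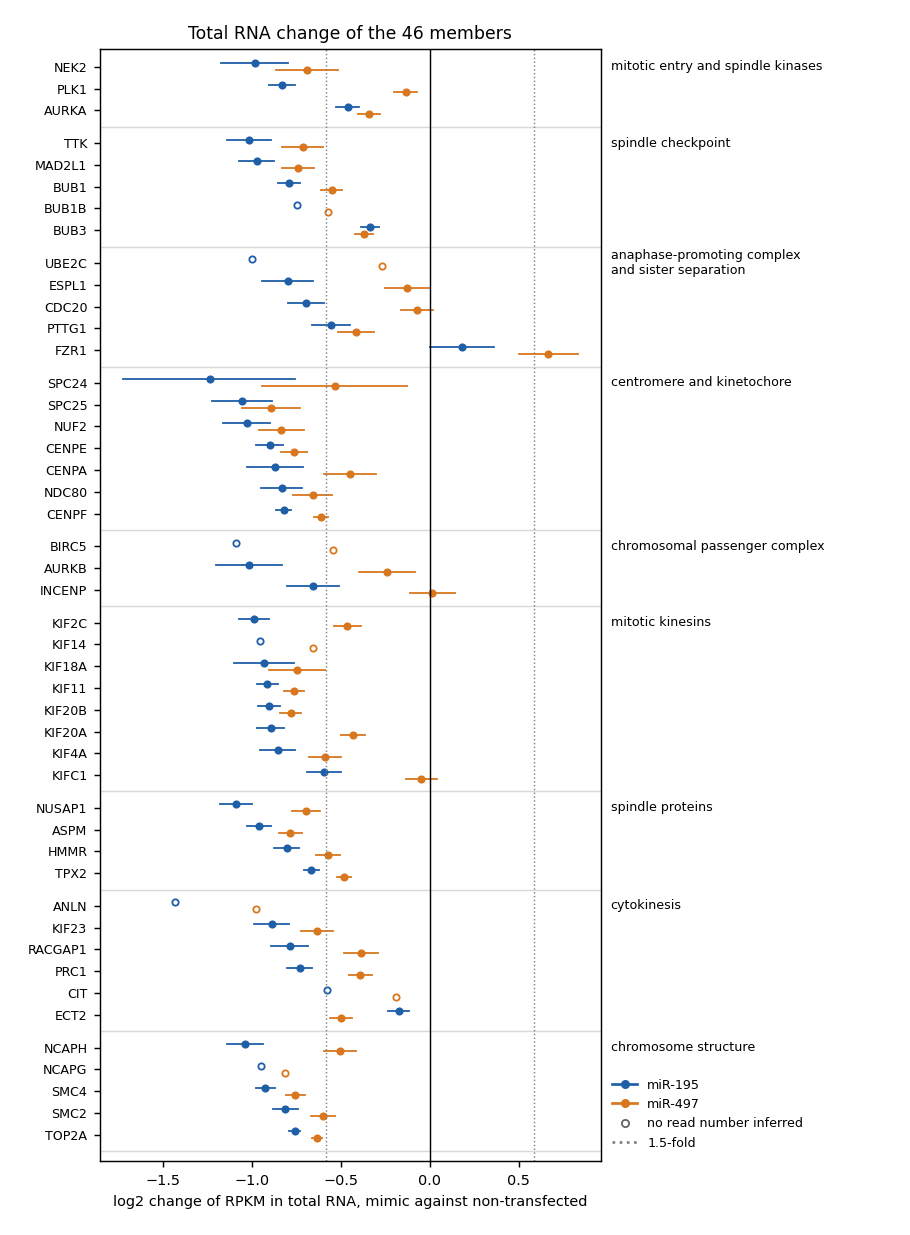
Log2 change of RPKM in total RNA against non-transfected cells for each member, grouped by role, with *miR-195* in blue and *miR-497* in orange; bars are 95% counting intervals, open symbols mark the 7 members without inferred reads, and dotted lines mark 1.5-fold. Most members lie left of the dotted line with *miR-195* and nearer to 0 with *miR-497*, and FZR1 alone lies to the right of 0 with *miR-195*.

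Of the 3 mitotic kinases, 2 were lower by at least 1.5-fold in total RNA with *miR-195* and 1 was with *miR-497*. PLK1, the polo-like kinase that acts from mitotic entry to cytokinesis, was at 73.6, 41.5 and 67.1 RPKM in total RNA and at 9.42, 12.2 and 4.01 RPKM in Ago2-IP. Its total RNA change was -0.83 (95% counting interval -0.90 to -0.76) after *miR-195* and -0.13 (95% counting interval -0.20 to -0.07) after *miR-497*, and dividing each library by its median moved the latter to -0.29. In Ago2-IP it was the second lowest of all members with *miR-497*, at -1.23 (95% counting interval -1.58 to -0.89). With *miR-195* its Ago2-IP level was higher, at 0.37 (95% counting interval 0.15 to 0.59), but below the median of all features, and scaling each library by its median turned this value to -0.15. AURKA, which builds the spindle poles, was at 70.0, 50.8 and 55.3 RPKM in total RNA and 11.7, 10.6 and 7.41 RPKM in Ago2-IP and stayed within 1.5-fold in total RNA, with log2 changes of -0.46 after *miR-195* and -0.34 after *miR-497*. NEK2, which separates the centrosomes, was at 11.7, 5.92 and 7.26 RPKM in total RNA and 1.42, 1.41 and 0.925 RPKM in Ago2-IP. NEK2 passed 1.5-fold in total RNA with both mimics (-0.98 and -0.69).

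Of the 5 spindle checkpoint genes, 4 were lower after *miR-195* and 2 after *miR-497*. TTK, the kinase that starts checkpoint signalling, was at 19.4, 9.59 and 11.8 RPKM in total RNA and 6.10, 3.21 and 3.76 RPKM in Ago2-IP. MAD2L1, which binds and holds CDC20, was at 65.3, 33.3 and 39.1 RPKM in total RNA and 6.70, 4.81 and 3.66 RPKM in Ago2-IP. These were the checkpoint genes past 1.5-fold in total RNA with both mimics, TTK at -1.02 after *miR-195* and -0.71 after *miR-497* and MAD2L1 at -0.97 after *miR-195* and -0.74 after *miR-497*. BUB1, a kinase at the kinetochore, was at 57.7, 33.3 and 39.4 RPKM in total RNA and 13.2, 6.88 and 7.72 RPKM in Ago2-IP. BUB1B, the checkpoint protein BubR1, was at 37.6, 22.4 and 25.4 RPKM in total RNA and 10.1, 4.72 and 6.46 RPKM in Ago2-IP. BUB1 and BUB1B were below their non-transfected values in every library with a mimic, and passed 1.5-fold in total RNA with *miR-195*. BUB3, which brings BUB1 and BUB1B to the kinetochore, was at 93.6, 74.2 and 72.5 RPKM in total RNA and 12.4, 15.01 and 12.4 RPKM in Ago2-IP. Its total RNA values with the mimics were nearly equal, its log2 changes of -0.34 (95% counting interval -0.39 to -0.28) and -0.37 (95% counting interval -0.42 to -0.32) stayed within 1.5-fold, and its Ago2-IP changes were 0.28 (95% counting interval 0.11 to 0.45) and -0.001 (95% counting interval -0.19 to 0.19).

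The anaphase-promoting complex group held the member that went the other way. FZR1 (Cdh1), the activator that keeps the complex active from the end of mitosis into G1, was at 5.03, 5.71 and 7.99 RPKM in total RNA and 1.51, 2.91 and 0.961 RPKM in Ago2-IP. In total RNA it was above the non-transfected library with both mimics, by 0.18 (95% counting interval 0.0046 to 0.36) and 0.67 (95% counting interval 0.50 to 0.83), and past 1.5-fold with *miR-497*. A pseudocount of 1 RPKM, or division of each library by its median, left FZR1 within 1.5-fold with *miR-497*. CDC20, the activator used at the start of anaphase, was at 45.4, 28.1 and 43.2 RPKM in total RNA and 3.55, 5.70 and 2.47 RPKM in Ago2-IP. CDC20 was lower with *miR-195* at -0.69 and close to the non-transfected level with *miR-497*, at -0.07 (95% counting interval -0.16 to 0.02). UBE2C, the ubiquitin-conjugating enzyme of the complex, was at 22.8, 11.4 and 19.0 RPKM in total RNA and 3.41, 3.31 and 1.84 RPKM in Ago2-IP. ESPL1 (separase), which cuts cohesin, was at 6.07, 3.49 and 5.56 RPKM in total RNA and 2.75, 2.02 and 1.74 RPKM in Ago2-IP. Both passed 1.5-fold with *miR-195* and neither did with *miR-497*. PTTG1 (securin), which blocks separase until anaphase, was at 93.2, 63.5 and 70.1 RPKM in total RNA and 6.51, 8.05 and 3.82 RPKM in Ago2-IP, with total RNA changes of -0.55 after *miR-195* and -0.41 after *miR-497*. In this group 3 of 5 genes were lower with *miR-195* and 0 of 5 with *miR-497*.

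All 7 centromere and kinetochore genes were lower with *miR-195* by at least 1.5-fold, and 5 were with *miR-497*. SPC24, SPC25, NDC80 and NUF2 together form the NDC80 complex, which grips the spindle fiber. SPC25 was at 23.6, 11.4 and 12.7 RPKM in total RNA and 5.47, 3.87 and 2.65 RPKM in Ago2-IP. NUF2 was at 25.6, 12.5 and 14.4 RPKM in total RNA and 4.72, 2.25 and 3.40 RPKM in Ago2-IP. NDC80 was at 28.1, 15.8 and 17.8 RPKM in total RNA and 4.21, 2.10 and 2.68 RPKM in Ago2-IP. These 3 passed 1.5-fold with both mimics, and SPC25 and NUF2 followed ANLN as the lowest members with *miR-497*, at -0.89 and -0.83. SPC24 was at 6.86, 2.92 and 4.74 RPKM in total RNA and 1.54, 1.91 and 1.005 RPKM in Ago2-IP. Its change with *miR-195*, -1.23 (95% counting interval -1.72 to -0.76), was the second lowest of the members and rested on 111, 56 and 96 reads, with 17, 17 and 7 reads in Ago2-IP, so that its Ago2-IP changes were not resolved from 0 at this depth. CENPA, the histone that marks the centromere, was at 23.2, 12.7 and 17.0 RPKM in total RNA and 5.49, 3.65 and 2.76 RPKM in Ago2-IP. CENPE, a kinesin that moves chromosomes to the spindle middle, was at 16.5, 8.85 and 9.72 RPKM in total RNA and 8.91, 4.31 and 7.63 RPKM in Ago2-IP. In Ago2-IP CENPE was among the lower members with *miR-195*, at -1.05 (95% counting interval -1.20 to -0.90), and among the highest with *miR-497*. CENPF, a large outer kinetochore protein, was at 44.96, 25.5 and 29.4 RPKM in total RNA and 44.2, 28.6 and 27.8 RPKM in Ago2-IP, the highest Ago2-IP value of any member in each of the 3 libraries.

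The chromosomal passenger complex corrects faulty attachments and later moves to the site of division. AURKB, its kinase, was at 21.1, 10.4 and 17.8 RPKM in total RNA and 2.79, 3.09 and 2.28 RPKM in Ago2-IP. BIRC5 (survivin), which brings the complex to chromatin, was at 38.3, 18.0 and 26.3 RPKM in total RNA and 9.95, 8.05 and 4.05 RPKM in Ago2-IP. INCENP, its scaffold, was at 8.98, 5.70 and 9.07 RPKM in total RNA and 2.74, 2.52 and 1.63 RPKM in Ago2-IP. All 3 passed 1.5-fold with *miR-195*, at -1.02, -1.09 and -0.65, and none did with *miR-497*. With *miR-497* INCENP, which carries a target sequence, had a total RNA change of 0.01 (95% counting interval -0.11 to 0.14). BIRC5 was the lowest member in Ago2-IP with *miR-497*, at -1.30.

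All 8 mitotic kinesins were lower after *miR-195* and 5 after *miR-497*. KIF11, which pushes the spindle poles apart, was at 47.5, 25.3 and 28.0 RPKM in total RNA and 7.98, 4.38 and 4.45 RPKM in Ago2-IP. KIF14, a kinesin of the midbody, was at 13.4, 6.92 and 8.49 RPKM in total RNA and 5.85, 3.02 and 4.46 RPKM in Ago2-IP. KIF18A, which limits the growth of spindle fibers at the kinetochore, was at 8.95, 4.69 and 5.34 RPKM in total RNA and 3.35, 2.08 and 2.71 RPKM in Ago2-IP. These 3, with KIF20B and KIF4A, passed 1.5-fold with both mimics. KIF20B, a kinesin of late mitosis, was at 35.8, 19.1 and 20.8 RPKM in total RNA and 13.6, 5.58 and 9.51 RPKM in Ago2-IP, where its change with *miR-195* of -1.28 (95% counting interval -1.43 to -1.13) was the second lowest. KIF4A, a chromosome-bound kinesin, was at 19.0, 10.5 and 12.7 RPKM in total RNA and 3.30, 2.43 and 2.23 RPKM in Ago2-IP. KIF20A, which brings PLK1 and the passenger complex to the central spindle, was at 44.5, 24.0 and 33.1 RPKM in total RNA and 5.20, 3.73 and 2.98 RPKM in Ago2-IP. KIF2C, which takes spindle fibers apart at the centromere, was at 40.9, 20.6 and 29.7 RPKM in total RNA and 6.85, 4.54 and 3.52 RPKM in Ago2-IP. KIF20A and KIF2C stayed within 1.5-fold with *miR-497*, at -0.43 and -0.46. KIFC1, which bundles spindle poles, was at 29.6, 19.6 and 28.6 RPKM in total RNA and 4.53, 3.26 and 2.67 RPKM in Ago2-IP, and with *miR-497* its total RNA change was -0.05 (95% counting interval -0.13 to 0.04).

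The 4 spindle proteins were all lower with *miR-195*, and NUSAP1 and ASPM were also lower with *miR-497*. NUSAP1, which bundles spindle fibers around chromosomes, was at 48.9, 23.03 and 30.2 RPKM in total RNA and 6.43, 4.86 and 3.80 RPKM in Ago2-IP, and its change of -1.09 (95% counting interval -1.18 to -0.999) with *miR-195* was among the 4 lowest of all members. ASPM, a spindle pole protein, was at 16.8, 8.66 and 9.77 RPKM in total RNA and 14.6, 5.36 and 10.3 RPKM in Ago2-IP. The Ago2-IP change of ASPM with *miR-195*, -1.45 (95% counting interval -1.56 to -1.33), was the lowest of the members. TPX2, which activates AURKA and nucleates spindle fibers, was at 128, 80.8 and 91.7 RPKM in total RNA and 15.6, 12.8 and 12.1 RPKM in Ago2-IP. HMMR, another spindle pole protein, was at 51.8, 29.7 and 34.8 RPKM in total RNA and 7.64, 5.14 and 4.99 RPKM in Ago2-IP. Both were within 1.5-fold in total RNA with *miR-497* (-0.48 and -0.57).

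The cytokinesis genes held both the lowest member and 1 of the highest. ANLN (anillin), which links actin and myosin in the contractile ring, was at 43.2, 16.02 and 21.9 RPKM in total RNA and 9.80, 5.47 and 6.60 RPKM in Ago2-IP. It was the lowest of all members with both mimics, at -1.43 after *miR-195* and -0.98 after *miR-497*, and no reads could be inferred for it. KIF23, the kinesin of centralspindlin, the complex that organizes the central spindle, was at 24.0, 12.98 and 15.5 RPKM in total RNA and 5.95, 4.02 and 4.49 RPKM in Ago2-IP. Its total RNA change was -0.89 (95% counting interval -0.99 to -0.79) after *miR-195* and -0.63 (95% counting interval -0.72 to -0.54) after *miR-497*, past 1.5-fold with both. RACGAP1, the partner of KIF23 in centralspindlin, was at 21.4, 12.4 and 16.3 RPKM in total RNA and 3.92, 3.27 and 2.33 RPKM in Ago2-IP. RACGAP1 passed 1.5-fold with *miR-195*, at -0.79, and not with *miR-497*, at -0.39. ECT2, which centralspindlin recruits to activate RhoA, was at 48.3, 42.8 and 34.2 RPKM in total RNA and 14.4, 12.7 and 9.62 RPKM in Ago2-IP. ECT2 differed from the other cytokinesis genes in the order of the mimics, with -0.17 (95% counting interval -0.23 to -0.12) after *miR-195* and -0.50 (95% counting interval -0.56 to -0.44) after *miR-497*. PRC1, which bundles the central spindle, was at 52.2, 31.5 and 39.9 RPKM in total RNA and 11.4, 7.24 and 6.39 RPKM in Ago2-IP. CIT (citron kinase), a midbody kinase, was at 3.92, 2.63 and 3.44 RPKM in total RNA and 3.21, 1.86 and 2.29 RPKM in Ago2-IP. PRC1 passed 1.5-fold with *miR-195* at -0.73, and CIT at -0.58 did not.

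The chromosome structure genes were all lower with *miR-195*, and 4 of 5 with *miR-497*. TOP2A, the topoisomerase that untangles sister chromatids, was at 143, 84.3 and 92.1 RPKM in total RNA and 32.0, 24.7 and 25.8 RPKM in Ago2-IP. SMC2, a core subunit of condensin, the ring that compacts mitotic chromosomes, was at 25.3, 14.4 and 16.7 RPKM in total RNA and 4.90, 2.82 and 3.99 RPKM in Ago2-IP. SMC4, the other core subunit, was at 53.0, 27.9 and 31.4 RPKM in total RNA and 18.0, 7.87 and 11.0 RPKM in Ago2-IP. The 3 genes passed 1.5-fold with both mimics in total RNA, and SMC4 was the third lowest member in Ago2-IP with *miR-195*, at -1.19. NCAPG, a regulatory subunit of condensin I, was at 38.2, 19.8 and 21.7 RPKM in total RNA and 6.46, 3.77 and 4.56 RPKM in Ago2-IP. NCAPH, which closes the condensin I ring and carries 1 target site, was at 19.9, 9.70 and 14.1 RPKM in total RNA and 3.60, 2.16 and 1.71 RPKM in Ago2-IP. NCAPG was lower with both mimics, and NCAPH passed 1.5-fold with *miR-195* at -1.04 and not with *miR-497* at -0.50.

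The mimics were also compared directly in total RNA, without the non-transfected library. The question was whether the members were lower with one mimic than with the other. They were lower with *miR-195* than with *miR-497* in 44 of 46 cases, where 8768 of 15042 features were. The members' median log2 difference was -0.26 beside -0.07 for all features. By 1.5-fold, 7 members (15.2%) were lower with *miR-195*, where 11.0% of 15042 features were, and 0 were higher, where 6.0% were. The 7 were AURKB, PLK1, CDC20, SPC24, INCENP, ESPL1 and UBE2C, with log2 differences from -0.78 for AURKB to -0.62 for CDC20. PLK1 was at -0.69 (95% counting interval -0.77 to -0.62). ECT2, at 0.32 (95% counting interval 0.26 to 0.38), and BUB3, at 0.03 (95% counting interval -0.02 to 0.09), were the members that were not lower with *miR-195*. The interval of BUB3 included 0.

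Most members that were lower had no target site, but 40 members, lower or not, lacked one, so this alone is no contrast. A site here means TGCTGCT in the 3′UTR. The shorter word GCTGCT was in the 3′UTR of 12 members, the 6 with a site and ANLN among them. Sites in the coding sequence were not counted. They were present in 10 members (21.7%), compared with 35.2% of all symbols with a 3′UTR. With *miR-195* the 6 members with TGCTGCT had a median total RNA change of -0.84, and 5 of them were lower by at least 1.5-fold, while the 40 members without it had a median of -0.88 and 35 were lower. With *miR-497* the medians were -0.45 with a site, where 1 of 6 was lower, and -0.58 without, where 20 of 40 were. KIF23 was that 1 gene. Over all features with a 3′UTR the order was the opposite. With *miR-195* the median was -0.07 for 3700 features with a site and 0.04 for 9700 without one. The 6 members are too few for more than this description.

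The promoters of the members were then searched for elements of late cell cycle genes. The cell cycle genes homology region, or CHR, is a short promoter element through which the DREAM complex represses late cell cycle genes in resting cells and B-MYB and FOXM1 activate them in dividing ones, often with CCAAT boxes nearby. RefSeq promoters of 250 bases before to 50 after the transcript start (GRCh38.p14) were matched by symbol for 39 members, and AURKA, BUB3, TTK, BIRC5, TPX2, RACGAP1 and UBE2C had no entry in the table used. A CHR was searched as TTTGAA or TTCGAA on both strands, the second of which reads the same on either. It was present in 31 of 39 members (79.5%), beside 16.4% of 35116 promoters of the same length. CCAAT, on both strands, was present in 29 (74.4%) beside 34.6%, and both elements in 23 (59.0%) beside 6.38%. The E2F-like words TTTCGCGC and TTTGGCGC were present in 1 member, NUSAP1 (2.56%), beside 1.15% of promoters. A word match is a description and does not show that a factor binds. The 150 bases before the start are shown for KIF23 and PLK1 and for the members with the lowest and the highest total RNA change, with CHR and CCAAT words of either strand in capitals.
KIF23, chr15:69414199-69414348, plus strand: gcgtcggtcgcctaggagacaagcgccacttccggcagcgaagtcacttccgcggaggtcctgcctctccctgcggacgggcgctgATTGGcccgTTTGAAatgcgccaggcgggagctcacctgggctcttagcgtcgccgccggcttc
PLK1, chr16:23678739-23678888, plus strand: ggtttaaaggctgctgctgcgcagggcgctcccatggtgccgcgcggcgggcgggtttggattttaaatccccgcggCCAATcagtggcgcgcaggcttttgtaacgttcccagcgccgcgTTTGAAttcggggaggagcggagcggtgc
ANLN, chr7:36389712-36389861, plus strand: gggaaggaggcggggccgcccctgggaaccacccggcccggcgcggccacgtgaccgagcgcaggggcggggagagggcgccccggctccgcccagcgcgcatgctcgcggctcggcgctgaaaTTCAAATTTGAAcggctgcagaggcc
FZR1, chr19:3506161-3506310, plus strand: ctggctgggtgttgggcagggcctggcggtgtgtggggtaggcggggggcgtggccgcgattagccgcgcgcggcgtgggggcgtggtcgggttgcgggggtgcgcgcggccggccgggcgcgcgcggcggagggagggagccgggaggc
In KIF23 and PLK1 a CHR follows a CCAAT box, 55 and 29 bases before the start. In ANLN 2 CHR words lie side by side, and in FZR1 the word lies farther out, 226 bases before the start, and is not in the stretch shown. The 31 members with a CHR word had a median total RNA change of -0.83 with *miR-195*, where 28 were lower by at least 1.5-fold, and the 8 without had a median of -0.98, where 7 were lower. With *miR-497* the medians were -0.61 and -0.48, and 18 of 31 and 2 of 8 were lower.

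Other genes of mitosis and of DNA replication were set beside the members in total RNA. Of 130 other mitosis genes, 53 were lower by at least 1.5-fold with *miR-195* and 0 were higher, and 28 were lower with *miR-497* and 1, ANAPC2, was higher. Their median log2 changes were -0.50 and -0.32. Of 48 DNA replication genes 33 and 10 were lower and 0 were higher, with medians of -0.67 and -0.37. The members thus had the lowest median of the 3 lists with each mimic, and no test compares the lists. All 3 lists were chosen with earlier results of these data known, so their order is a description only. Among the other genes the kinetochore list stood nearest to the members, with 19 of 30 lower after *miR-195* and 11 after *miR-497*. The list of other cytokinesis genes, which include trafficking and cytoskeleton genes such as VPS4B and MYH9, had 5 of 21 and 3 of 21 lower and medians of -0.09 and -0.08. Condensin and cohesin genes had 6 of 17 and 3 of 17, and further spindle and passenger genes 14 of 34 and 6 of 34 lower. The anaphase-promoting complex list had 4 of 15 and 3 of 15 lower, and holds FBXO5, UBE2S and UBE2D1, which are not subunits. Of the 13 DREAM, B-MYB and FOXM1 regulators 5 and 2 were lower, with medians of -0.22 and -0.14, and the highest of them was LIN37, at 0.33 after *miR-195* and 0.38 after *miR-497*.

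By the rule for naming genes, the 27 of the 130 that were lower by at least 1.5-fold with both mimics, which share a non-transfected library, are named here. They were the kinetochore genes CENPH, CENPK, CENPN, CENPP, CENPQ, MLF1IP, CASC5, KNTC1, SKA1, SKA3 and OIP5, the condensin and cohesin genes NCAPG2, SGOL1 and SGOL2, the genes ANAPC13, CDC27 and FBXO5 of the anaphase-promoting complex list, the spindle genes CDCA2, CKAP2L, DLGAP5, DEPDC1 and KIF15, the cytokinesis genes CEP55, DIAPH3 and BRCA2, and LIN9 and RBL1 of the DREAM complex. The share of all features lower with both mimics was not counted, and with *miR-497* alone it was 5.53%. OIP5, which helps load CENPA at the centromere, was at 19.4, 7.91 and 10.2 RPKM in total RNA, the lowest change of the 130 with both mimics (-1.29 and -0.93). CEP55, which brings the abscission machinery to the midbody, was at 33.5, 17.5 and 19.8 RPKM in total RNA. FOXM1, the activator of late cell cycle promoters, was at 29.0, 15.7 and 24.4 RPKM in total RNA, and MYBL2 (B-MYB), its partner, was at 58.3, 34.7 and 53.7 RPKM. Both were lower with *miR-195*, at -0.89 (95% counting interval -0.98 to -0.80) and -0.75 (95% counting interval -0.82 to -0.68), and within 1.5-fold with *miR-497*, at -0.25 (95% counting interval -0.33 to -0.17) and -0.12 (95% counting interval -0.18 to -0.06).

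**Figure D3:**
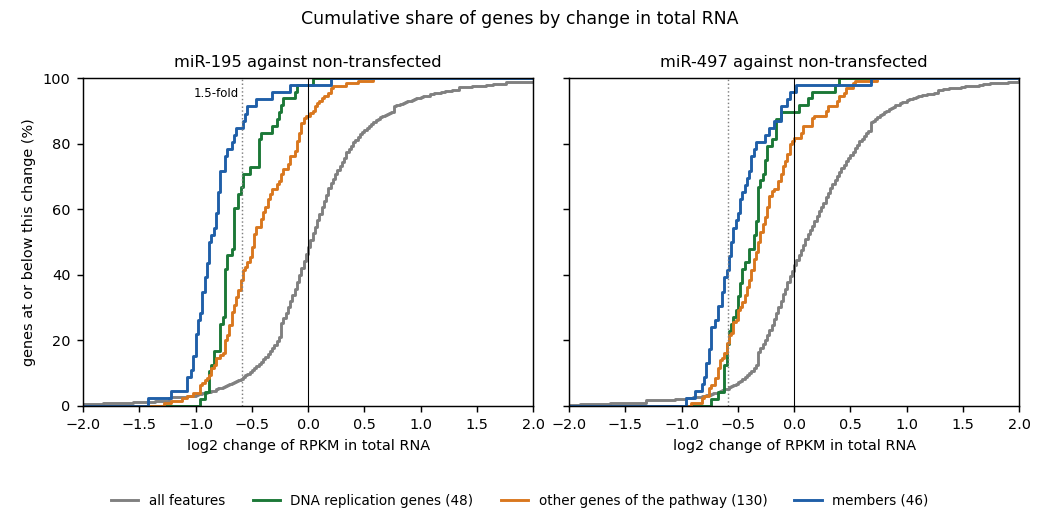
Cumulative share of genes (vertical axis, percent) at or below each log2 change of RPKM in total RNA (horizontal axis) with *miR-195* (left) and *miR-497* (right), for the 46 members, 130 other genes of mitosis, 48 DNA replication genes and all features. The members' curve lies farthest left over most of its course in both panels, with medians of -0.88 and -0.56, and the medians of all 3 lists lie left of that of all features.

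In the Ago2-IP libraries the members were lower as well, but these libraries were shifted as a whole, with a median log2 change over all features of 0.48 after *miR-195* and -0.23 after *miR-497*. The members' medians were -0.53 and -0.65. By 1.5-fold, 21 members were lower with *miR-195*, where 6.25% of 14291 features were, and FZR1 and CDC20 were higher, where 43.8% of features were. With *miR-497*, 28 members were lower, where 19.1% of 13866 features were, and 0 were higher, where 8.78% were. Taken relative to the median of all features, 37 members were lower with *miR-195*, beside 17.4% of features, and 10 with *miR-497*, beside 10.3%. Relative to that median 0 members were higher by 1.5-fold with either mimic, beside 21.4% and 12.3% of features. The members' medians were 1.01 and 0.43 below the median of all features. With *miR-195* the counting interval lay wholly below the median of all features for 32 of 39 members, beside 24.3% of features, and with *miR-497* for 24, beside 11.8%. Depth was unlike here too, with a member median of 6.26 RPKM without transfection beside 2.02 for features above 0.

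The lowest members in Ago2-IP differed between the mimics. With *miR-195* they were ASPM, KIF20B and SMC4, all of low G+C content, and the highest were FZR1, at 0.94 (95% counting interval 0.55 to 1.34), CDC20, at 0.68 (95% counting interval 0.30 to 1.07), and PLK1. With *miR-497* the lowest were BIRC5, PLK1 and NCAPH, the last at -1.07 (95% counting interval -1.44 to -0.71), and the highest were BUB3, CENPE, at -0.22 (95% counting interval -0.36 to -0.09), and AURKB, at -0.29 (95% counting interval -0.98 to 0.37). KIF23 had Ago2-IP changes of -0.56 (95% counting interval -0.82 to -0.31) and -0.41 (95% counting interval -0.68 to -0.14). In these bulk samples a lower level of a transcript in the Ago2-IP fraction of all cells and a smaller share of cells that carry it cannot be told apart, and the same holds for total RNA and the share of cells in mitosis.

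Without any mimic, the members as a group had a lower Ago2-IP level relative to total RNA than the median feature. The median log2 ratio of Ago2-IP to total RNA in non-transfected cells was -2.28 for the members and -1.62 for all features. The 48 DNA replication genes had a median of -2.29, and 24 of them lay below the median of all features by at least 1.5-fold. For the 130 other mitosis genes these values were -1.98 and 54, so a low ratio was not particular to the members. Relative to the median of all features, 23 members had a ratio lower by at least 1.5-fold, where 31.2% of 14101 features did, and 4 had a higher one, where 32.3% did. The 4 were CENPF (-0.03), ASPM (-0.20), CIT (-0.29) and CENPE (-0.89), which have the longest canonical transcripts of the set, from 8541 bases for CENPE to 10863 bases for ASPM. The lowest were PTTG1 (-3.84), whose transcript of 715 bases is the shortest, CDC20 (-3.68) and MAD2L1 (-3.28). Across the 46 members the ratio and the log2 transcript length had a Pearson's r of 0.66 and a Spearman's rho of 0.57, and across 13512 features an r of 0.04 and a rho of 0.28. These are correlations across genes that share 2 libraries and are given as descriptions. The 2 libraries were made from different amounts of RNA and may differ in poly-A selection. Library preparation and association with Ago2 therefore cannot be told apart in this ratio. KIF23 was at -2.01 and PLK1 at -2.97.

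**Figure D4:**
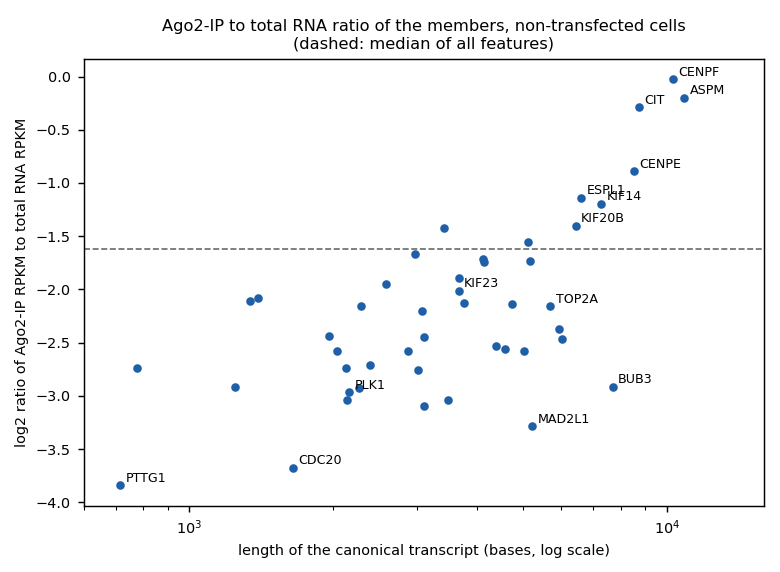
Vertical axis, log2 of Ago2-IP RPKM over total RNA RPKM in non-transfected cells, against the length of the canonical transcript in bases (log scale) for the 46 members; the dashed line is the median of all features, -1.62. The 4 longest transcripts, ASPM, CENPF, CIT and CENPE, have the 4 highest ratios, and BUB3 and MAD2L1, whose implied lengths of 2760 and 1434 bases are well under the annotated ones, lie low for their length.

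The fold enrichment score, the Ago2-IP to total RNA ratio with a mimic divided by that ratio without transfection, had member medians nearer to those of all features than the changes in total RNA or Ago2-IP had. The median log2 score of the members was 0.32 with *miR-195*, beside 0.47 for all features, and -0.08 with *miR-497*, beside -0.28. With *miR-195* the members' median, taken relative to all features, turned from -0.14 to 0.20 with a pseudocount of 1 RPKM. Relative to the median of all features, 8 members were lower by 1.5-fold with *miR-195*, where 16.9% of 13749 features were, and 4 were higher, where 18.6% were. The 4 were CDC20, PLK1, AURKB and SPC24, the last with few Ago2-IP reads, and the lowest were ASPM, KIF20B and BUB1B. With *miR-497*, 2 members were lower, where 20.6% of 13430 features were, and 7 were higher, where 12.6% were. The 2 were FZR1 and PLK1, INCENP was the third lowest, and CENPE, KIF18A and ANLN were the highest. PLK1 had a score of 2.29 after *miR-195* and 0.467 after *miR-497*, and so lay among the highest members with one mimic and among the lowest with the other. KIF23 had scores of 1.25 and 1.17, within 1.5-fold of the median of all features with both mimics. The 6 members with a target site had a median log2 score of 0.53 after *miR-195* and -0.46 after *miR-497*, and the 40 without it 0.26 and -0.07. With *miR-195* all 6 lay within 1.5-fold of the median of all features, and with *miR-497* BUB3 was above it by more than 1.5-fold.

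The members' changes varied with the base composition of their transcripts. G+C content of the canonical transcripts ran from 34.3% for KIF20B to 63.8% for FZR1, with a median of 42.1% beside 48.9% for expressed genes. Across the 46 members the total RNA change with *miR-497* and G+C content had a Pearson's r of 0.86 and a Spearman's rho of 0.81, beside 0.52 and 0.63 across 14118 features. With *miR-195* the members' r was 0.29 and rho 0.22 in total RNA, beside 0.18 and 0.23 across all features. For Ago2-IP the members had an r of 0.67 and a rho of 0.63 after *miR-195*, and an r of -0.33 and a rho of -0.39 after *miR-497*. Across all features the Ago2-IP values were 0.415 and 0.475 after *miR-195*, and -0.17 and -0.21 after *miR-497*. For the fold enrichment score the members' r was 0.58 and rho 0.58 after *miR-195*, and r was -0.81 and rho -0.78 after *miR-497*, where PLK1, FZR1 and INCENP are all of high G+C content. Across all features the score had 0.28 and 0.35 after *miR-195*, and -0.52 and -0.61 after *miR-497*. The points share their libraries and are not independent, and the part of base composition in the members' changes was not tested. The 12 members at or above 50% were AURKB, PLK1, CDC20, FZR1, SPC24, BIRC5, INCENP, KIF2C, KIFC1, CIT, ESPL1 and UBE2C, a limit chosen after the values had been seen, and 0 of them were lower by 1.5-fold in total RNA with *miR-497*, where 21 of the other 34 were. Over all features 184 of 6660 at or above 50% and 567 of 7458 below it were lower in that comparison. The 0 of 12 thus lay near the share of their class, while the 21 of 34 lay above the share of theirs. The 7 members lower by 1.5-fold with *miR-195* than with *miR-497* were all among the 12, and 0 were among the other 34. Over all features 1224 of 6812 at or above 50% and 330 of 7561 below it were lower in this direct comparison. There the members' r with G+C content was -0.785, beside -0.38 across 14373 features. The members were then set beside features of the same G+C class. With *miR-497* the median of the 12 was 0.57 below that of 6660 features at or above 50%, and the median of the 34 was 0.50 below that of 7458 features under it. With *miR-195* these differences were 0.93 and 0.83 in total RNA, and the Ago2-IP values were 0.91 and 0.89. For Ago2-IP with *miR-497* they were 0.36 and 0.47.

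**Figure D5:**
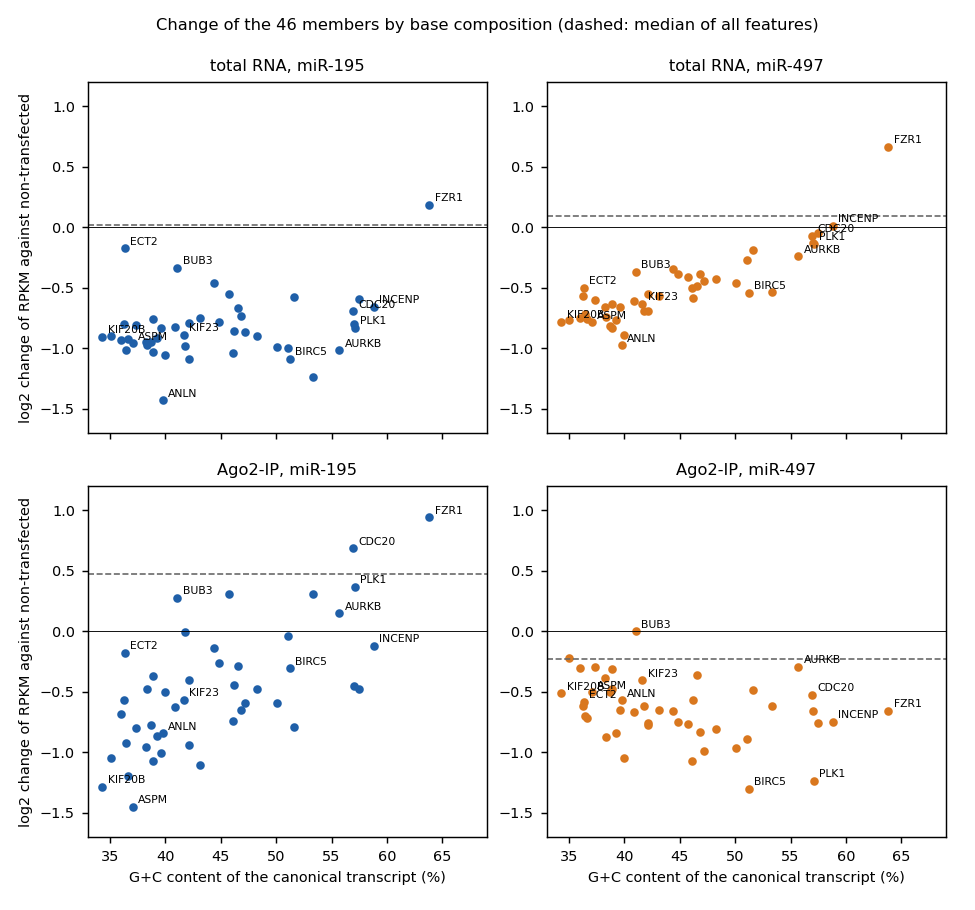
Log2 change of RPKM against non-transfected cells (vertical axes) and G+C content of the canonical transcript in percent (horizontal axes) for the 46 members in total RNA (top) and Ago2-IP (bottom) with *miR-195* (left) and *miR-497* (right); dashed lines are medians of all features. The correlation is most positive for *miR-497* in total RNA, at 0.86, followed by 0.67 for *miR-195* in Ago2-IP, and in each panel most members lie below the dashed line.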

How the data were processed

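RNA that co-purified with Ago2 (Ago2-IP) and total RNA from Hep G2 cells had been sequenced on an Illumina instrument. The authors report a smaller RNA input for Ago2-IP than for total RNA, and preparation with or without poly-A selection. Which libraries had that selection is not stated. The authors deposited RPKM per gene symbol for each library, made per the labels and the submitters' processing notes with CASAVA 1.7 (ELANDv2) on hg19; the gene models and the treatment of reads that map to several genes are not given in the sources used here. The table holds 21891 lines and 21863 symbols, of which 28 are repeated, none of them a member.

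Log2 ratios of RPKM were taken without a pseudocount over features above 0 in the libraries compared. A difference of at least 1.5-fold was counted as lower or higher, and with 1 library per group no test was run. Read numbers were inferred as the smallest whole numbers in the ratios of a gene's RPKM values across libraries, which succeeded for 11629 of 15487 genes (75.1%) and for 39 members, and which failed for BUB1B, BIRC5, KIF14, ANLN, CIT, NCAPG and UBE2C. Where the true number is a multiple of the inferred one, the interval is too wide. The lengths implied by these reads lay within 1.5-fold of the canonical transcript for 83.8% of 10810 genes and for 36 members, the exceptions being BUB3, MAD2L1 and SPC24. Counting intervals of 95% cover counting error only. The steps were tested on simulated data. Python 3.11.15, numpy 2.4.6, pandas 2.3.3, scipy 1.17.1 and matplotlib 3.10.9 were used.

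The members and gene lists were chosen with earlier results of these data known, and the G+C limit of 50% after the values were seen. Genes named in full were KIF23 and PLK1, the 3 lowest and 3 highest members in each contrast, members past 1.5-fold in total RNA with both mimics and members with a target site, and the remaining members were given as well. Named among the other mitosis genes were those past 1.5-fold with both mimics, FOXM1 and MYBL2; OIP5, CEP55 and ANAPC2 were singled out after their values were seen. Alternatives were a fold of 2, pseudocounts of 0.1 and 1 RPKM, a minimum of 1 RPKM, scaling by the median, calls by counting interval, other target words and a shorter promoter window. The sequence of 1 target site is not reported here.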

Additional observations from a re-analysis of the deposited data

Results flagged for a closer look

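Among the 39 members with reads, BUB3 was the one whose Ago2-IP counting intervals lay wholly on opposite sides of the median of all features with the 2 mimics. Relative to the median log2 change of all features its Ago2-IP change was -0.20 after *miR-195* and 0.23 after *miR-497*. FZR1 and CDC20 also lay above that median with *miR-195*, at 0.47 and 0.21, and below it with *miR-497*, at -0.43 and -0.30, but not with both intervals clear of it. The difference was not tested, since each condition has 1 library. In total RNA the log2 changes of BUB3 were -0.34 after *miR-195* and -0.37 after *miR-497*.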

How the results depend on the processing

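Of 201 values recomputed under an alternative, 147 stayed within the limits set for agreement, 52 moved and 2 reversed, and the cause was not tested. With a 2-fold limit, members lower in total RNA numbered 10 with *miR-195*, 0 with *miR-497* and 0 for *miR-195* against *miR-497*, and 0 were higher with *miR-497*. In Ago2-IP that limit left 7 lower and 0 higher with *miR-195* and 4 lower with *miR-497*, 14 with a lower Ago2-IP to total RNA ratio, and scores lower for 0 and higher for 1 with *miR-195* and lower for 1 and higher for 0 with *miR-497*. Other mitosis genes lower by 2-fold numbered 5 and 0, and replication genes 0 and 0. Division of each library by its median RPKM gave, in total RNA with *miR-497*, 31 members lower in place of 21, which counted as agreement. It also gave a member median of -0.71, 0 members higher, and 44 other mitosis and 21 replication genes lower there. With *miR-195* it gave 42 members lower in total RNA in place of 40. It gave 4 members lower and a median of -0.16 for *miR-195* against *miR-497*. In Ago2-IP it gave 37 lower, 0 higher and a median of -1.05 with *miR-195*, 8 lower and a median of -0.39 with *miR-497*, and turned PLK1 with *miR-195* to -0.15. By counting interval, 35 members were lower in total RNA with *miR-497*, 32 were lower and 1 higher in Ago2-IP with *miR-195*, and 1 was higher with *miR-497*. A pseudocount of 1 RPKM left 0 members higher in total RNA with *miR-497*, 1 higher in Ago2-IP with *miR-195*, and 18 lower with a median of -0.52 in Ago2-IP with *miR-497*. It gave 36 members with a lower Ago2-IP to total RNA ratio and a relative median of -1.26. With 0.1 RPKM that median was -0.97 and 33 members were lower in place of 23, a count that was taken as agreement. For the rest of this list the pseudocount is 1 RPKM unless stated. For the scores 1 RPKM gave 0 lower and 8 higher with *miR-195*, with the relative median reversed to 0.20, and 1 higher with *miR-497*, while 0.1 RPKM gave 4 lower with *miR-195*. With 1 RPKM added, 18 other mitosis and 6 replication genes were lower with *miR-497*. A minimum of 1 RPKM left 1 score lower and 3 higher with *miR-497*. Target words gave 1 member for TGCTGCTA and 12 for GCTGCT, and the E2F-like words were in 0 promoters when 150 bases before the start were searched. No library could be left out, since each group has 1. No paired analysis was possible because each group has 1 library. Depth limits Ago2-IP most, where SPC24 had 17, 17 and 7 reads.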

Other observations

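The replication genes that were lower by at least 1.5-fold in total RNA with both mimics were 9 of 48, a choice made after the values were seen and in comparisons that share the non-transfected library. They were MCM10, ORC6, CDC6, GMNN, RFC3, PRIM1, PRIM2, POLE2 and DNA2. Over all features the share lower with both mimics was not counted, and 5.53% were lower with *miR-497* alone. CDC6, which loads the replicative helicase at origins, was at 76.5, 42.2 and 49.4 RPKM in total RNA, and ORC6, a subunit of the origin recognition complex, was at 41.0, 20.9 and 26.5 RPKM. GMNN (geminin), which blocks a new round of loading until mitosis is over, was at 104, 67.3 and 68.4 RPKM. The log2 changes were -0.86 after *miR-195* and -0.63 after *miR-497* for CDC6, -0.97 after *miR-195* and -0.63 after *miR-497* for ORC6 and -0.62 after *miR-195* and -0.60 after *miR-497* for GMNN. POLD2, a subunit of DNA polymerase delta, was the replication gene that was not below its non-transfected level with *miR-195*, at 0.04.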
